A study of Homo sapiens with 6 samples.

Results

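The 10 genes described here carry glucose into the cell and through glycolysis to lactate. For each listed step 1 isoform was chosen, not always the most counted: SLC2A1, HK2, GPI, PFKP, ALDOA, TPI1, GAPDH, PGK1, ENO1 and LDHA. They were taken by symbol from a table of read counts for 22941 genes, and all 10 were found and passed the filter on low counts that left 14736 genes for testing. The cells are HSC-3, an established line of human oral squamous carcinoma, grown in DMEM with fetal bovine serum and antibiotics. They were kept under normal gravity or in the RCCS (Rotary Cell Culture System), a rotating vessel that keeps cells suspended and is used to simulate microgravity, with 3 biological replicate libraries of each. All libraries are from the same line with no genetic change or drug named in the labels, and no label states the time in culture. The labels do not say whether the normal gravity cells grew attached, so the vessel, attachment and gravity cannot be told apart.

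Glycolysis splits a glucose molecule into pyruvate and yields ATP without oxygen, and lactate dehydrogenase then turns pyruvate into lactate and regenerates the NAD+ that the pathway needs. Many carcinomas run it at a high rate even with oxygen present. Most genes of the pathway are targets of the hypoxia-inducible factor HIF-1, which binds DNA at sites with the core letters ACGTG or GCGTG, and several are also targets of MYC.

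Cells in simulated microgravity had lower transcripts of most of these steps. In edgeR's quasi-likelihood test, adjusted over all 14736 genes, 8 of the 10 genes fell, none rose, and HK2 and ALDOA did not pass an adjusted p of 0.05. Over all genes tested 29.3% were called lower and 28.2% higher, 57.6% in all. The median log2 fold change, simulated microgravity minus normal gravity, was -0.80 over the 10 genes and -0.01 over all genes. The 8 genes that fell were also those with every simulated microgravity library below every normal gravity library, which held for 33.3% of all genes tested. Together the 10 genes took 1.41%, 1.40% and 1.19% of all counts in the normal gravity libraries, against 0.590%, 0.667% and 0.598% with simulated microgravity. Each value is a share of its library, and in bulk RNA fewer cells of a type and less RNA per cell cannot be told apart.

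Total counts were between 34264008 and 38861233 a library, and replicates differed by more than sampling noise in all pairs within a group (chi-square per degree of freedom between 18.5 and 149). Normal gravity replicate 3 stood apart from the other 2 on the second principal component (7.59% of the variance). For each of the 10 genes it was the highest or the lowest library of its group. Its log2 ratio to the mean of replicates 1 and 2 was furthest from 0 for HK2 (-1.02) and SLC2A1 (0.68), then ENO1 (-0.38). The results of HK2 and SLC2A1 are given with and without it below. Without it the count of the 10 genes called lower was still 8. All 10 epithelial markers examined, squamous and general, were expressed (3 fell, 5 rose). Those that fell were KRT5, KRT14 and TP63, with log2 fold changes of -3.26, -3.41 and -1.79. Those that rose were KRT17, EPCAM, CDH1, KRT8 and KRT18, of which EPCAM, CDH1, KRT8 and KRT18 are not particular to squamous cells. On the CPM scale, which divides counts by scaled library size, KRT14, a basal keratin, fell from 3106.4 ± 1007.6 to 292.1 ± 15.0 CPM (SD, n = 3 in each group) and CDH1, E-cadherin, rose from 245.4 ± 40.9 to 589.2 ± 34.7 CPM. Markers of other cell types summed to 12.7 to 30.7 CPM for fibroblasts and 1.59 to 5.77 CPM for endothelium over both groups, with THY1, LUM and KDR under 1 CPM in each library. None of 4 fibroblast markers tested was called, and 1 of 3 endothelial markers, CDH5, rose from 0.0531 ± 0.0703 to 0.746 ± 0.438 CPM. DCN and PDGFRB stayed at or under 1.01 CPM, VWF reached 5.05 CPM in normal gravity replicate 3, and none of the 3 passed. Among immune markers PTPRC and CD3E were under 1 CPM, while CD14 rose from 28.7 ± 2.00 to 89.0 ± 16.7 CPM and CD68, a lysosomal membrane protein of macrophages that other cells also make, from 93.6 ± 15.1 to 187.8 ± 13.2 CPM. The list summed to 110.1 to 135.6 CPM in normal gravity and 264.1 to 286.1 CPM in simulated microgravity, and its part in the results below was not tested.

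The DNA before the start of these genes is shown for 4 of them, so that 3 genes that fell and HK2, which did not pass, can be read side by side with one of the HIF core forms, ACGTG, marked. Each line gives the 250 bases before the gene's outermost start in RefSeq GRCh38.p14, written 5′ to 3′ on the gene's strand. Capitals mark ACGTG on either strand, which reads CACGT on the other, and a palindrome CACGTG counts as a match on both. The other form, GCGTG, is left in lower case and counted below.
LDHA: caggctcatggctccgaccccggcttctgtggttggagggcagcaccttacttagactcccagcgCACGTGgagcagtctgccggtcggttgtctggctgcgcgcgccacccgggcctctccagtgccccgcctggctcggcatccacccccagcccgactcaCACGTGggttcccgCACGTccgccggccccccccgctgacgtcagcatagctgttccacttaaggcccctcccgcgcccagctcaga
PGK1: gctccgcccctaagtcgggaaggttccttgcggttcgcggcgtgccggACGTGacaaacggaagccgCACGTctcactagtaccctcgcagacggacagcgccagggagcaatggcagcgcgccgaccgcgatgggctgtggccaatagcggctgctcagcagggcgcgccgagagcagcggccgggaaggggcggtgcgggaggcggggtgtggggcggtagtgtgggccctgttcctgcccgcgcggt
ENO1: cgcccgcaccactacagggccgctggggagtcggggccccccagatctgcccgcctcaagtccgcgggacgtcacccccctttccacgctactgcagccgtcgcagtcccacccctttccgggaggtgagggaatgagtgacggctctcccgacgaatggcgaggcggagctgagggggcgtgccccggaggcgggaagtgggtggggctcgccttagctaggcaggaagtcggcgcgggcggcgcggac
HK2: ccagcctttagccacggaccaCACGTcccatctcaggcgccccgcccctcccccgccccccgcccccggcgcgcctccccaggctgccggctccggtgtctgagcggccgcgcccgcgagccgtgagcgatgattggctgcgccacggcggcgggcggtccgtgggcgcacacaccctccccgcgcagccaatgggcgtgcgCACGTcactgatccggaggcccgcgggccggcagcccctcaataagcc
The LDHA window (chr11:18394313-18394562, plus strand) held 5 matches, 2 CACGTG palindromes among their letters. The PGK1 window (chrX:78103998-78104247, plus strand) held 2, and the HK2 window (chr2:74833877-74834126, plus strand) also held 2. The ENO1 window (chr1:8878687-8878936, minus strand) held no ACGTG. The form GCGTG, on either strand, was found 2 times in the ENO1 window, 1 time each in those of PGK1 and HK2, and 0 times in that of LDHA. Of the members not printed, the SLC2A1 window held 0 matches to either form and the ALDOA window held 1 match to the marked form and 0 to the other. Among 35114 windows of the same length in the RefSeq table, 18.5% held ACGTG at least once, 32.2% GCGTG and 43.2% either form. Those windows lie at any listed start and not only at the outermost one. Of the 6 members with a window at the outermost start, 4 held ACGTG. The counts depended on the start chosen, since some members have other listed starts. The window of another HK2 start (chr2:74834920-74835169) held ACGTG 4 times and GCGTG 2 times. That of another LDHA start (chr11:18396101-18396350) held ACGTG 0 times and GCGTG 1 time. Over all 18 windows of the members, at any listed start, 11 held ACGTG. A match describes letters and is not a binding site.

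Uptake and trapping of glucose open the pathway. SLC2A1, which encodes the glucose transporter GLUT1, lies on chromosome 1 (42925353 to 42958868). It was at 525.4, 391.8 and 732.4 CPM in normal gravity and at 341.4, 368.1 and 328.7 CPM in simulated microgravity. The groups did not overlap, but normal gravity replicate 2 came close to the other group and replicate 3 was far above it. The fall was 1.59-fold (log2 fold change -0.67, SE 0.21, adjusted p = 0.0238 in edgeR). The call was lost without simulated microgravity replicate 1, 2 or 3 (adjusted p = 0.0771, 0.0524 and 0.0838), and without normal gravity replicate 3 the log2 fold change shrank to -0.41 (adjusted p = 0.0186). SLC2A3, the high-affinity transporter GLUT3, fell from 3.97 ± 0.994 to 1.48 ± 0.384 CPM, and SLC2A1 took 99.0% to 99.6% of the counts of this step.

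HK2, hexokinase 2 on chromosome 2 (74834127 to 74893359), phosphorylates glucose and is the inducible, mitochondria-bound hexokinase of many tumours. It was at 144.9, 140.0 and 70.1 CPM in normal gravity and at 166.3, 129.8 and 152.4 CPM in simulated microgravity. Normal gravity replicate 3 was low and the other 5 libraries overlapped. The log2 fold change of 0.34 (SE 0.26) did not pass (edgeR adjusted p = 0.298), and without normal gravity replicate 3 it was 0.07 (adjusted p = 0.611). HK1, the widely expressed hexokinase 1, fell from 511.5 ± 40.1 to 340.5 ± 34.3 CPM (log2 fold change -0.59, adjusted p = 0.00351). HK2 took 22.5%, 22.4% and 11.2% of hexokinase counts in normal gravity and 32.8%, 25.5% and 33.0% in simulated microgravity, and the groups did not overlap with or without replicate 3.

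**Figure D1:**
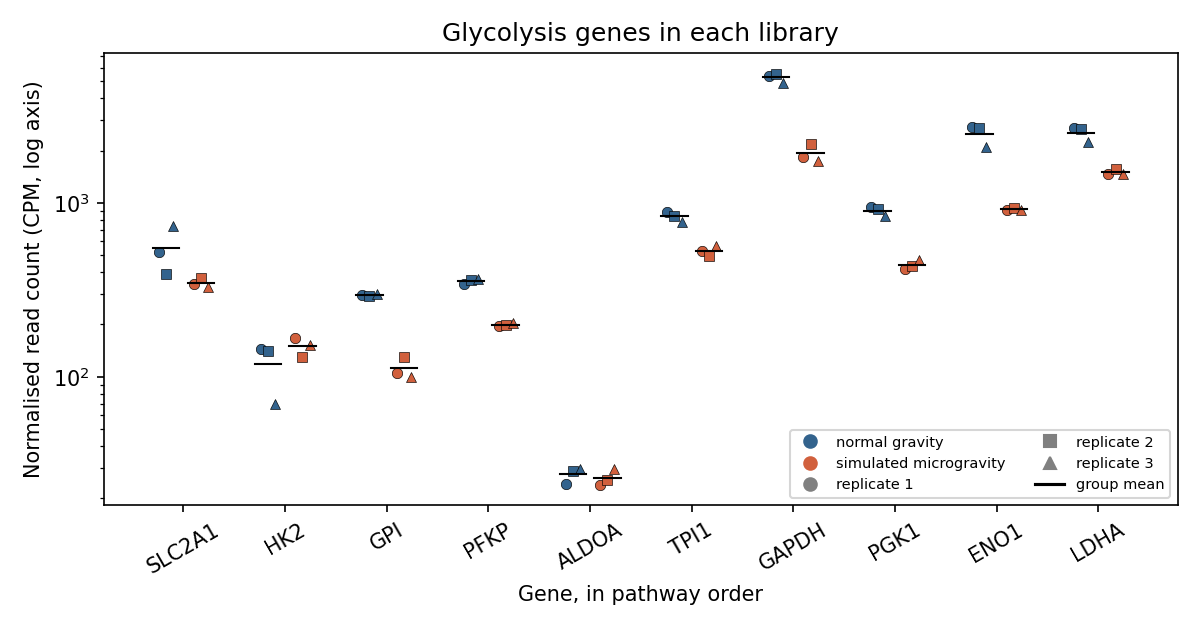
Normalised read count (CPM, log axis) of the 10 genes in pathway order, with 3 libraries of normal gravity (blue) and 3 of simulated microgravity (orange), symbols for replicate numbers and lines for group means. In 8 genes the groups are apart, from GAPDH at 4869.8 to 5553.8 against 1742.9 to 2190.2 CPM down to GPI, while HK2 and ALDOA overlap.

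The next steps rearrange the hexose and commit it. GPI, the isomerase that turns glucose 6-phosphate into fructose 6-phosphate, lies on chromosome 19 (34359718 to 34402413). It was at 297.1, 291.2 and 300.1 CPM in normal gravity and at 105.7, 130.1 and 99.1 CPM in simulated microgravity. The groups did not overlap, normal gravity with an SD of 4.53 CPM, and the fall of 2.65-fold (log2 fold change -1.41, SE 0.12, edgeR adjusted p = 4.49e-05) was one of the 3 largest of the 10 genes, with GAPDH and ENO1. PFKP, the platelet-type phosphofructokinase, lies on chromosome 10 (3067548 to 3136805) and catalyses the main rate-controlling step. It was at 342.5, 358.2 and 364.6 CPM in normal gravity and at 196.5, 198.0 and 203.6 CPM in simulated microgravity, a fall of 1.78-fold (log2 fold change -0.83, SE 0.10, edgeR adjusted p = 1.65e-04). All simulated microgravity libraries of PFKP were below the normal gravity ones, with small spread in both groups. Both other phosphofructokinase genes fell. PFKL, the liver type, fell from 104.1 ± 4.19 to 51.5 ± 4.90 CPM (log2 fold change -1.01) and PFKM, the muscle type, from 110.2 ± 4.96 to 31.3 ± 6.04 CPM (-1.81). The share of PFKP in the counts of the 3 genes was 61.3%, 63.4% and 62.3% in normal gravity and 71.3%, 67.5% and 73.3% in simulated microgravity.

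ALDOA, aldolase A on chromosome 16 (30064279 to 30070420), splits the 6-carbon sugar into 3-carbon pieces. It was at 24.2, 28.8 and 29.4 CPM in normal gravity and 23.9, 25.3 and 29.3 CPM in simulated microgravity. The groups overlapped throughout and the log2 fold change was -0.07 (SE 0.14, edgeR adjusted p = 0.686). RefSeq lists a second coding gene, LOC112694756, over 99.9% of the span of ALDOA, and in GENCODE 29 a gene on the same strand shares 93.8% of the coding bases of ALDOA. For the other 9 members that share was between 0% and 10.3%. LOC112694756, named after its values were seen, fell from 1.12 ± 0.334 to 0.472 ± 0.147 CPM by edgeR (adjusted p = 0.0453), and its part in the ALDOA value was not tested. No source used here says how reads matching overlapping genes were counted, so the level and the change of ALDOA are uncertain. ALDOC, aldolase C, fell from 27.2 ± 8.04 to 9.42 ± 3.27 CPM (log2 fold change -1.53, adjusted p = 0.00283). TPI1, which interconverts both 3-carbon products, lies on chromosome 12 (6867420 to 6870948). It was at 886.9, 844.7 and 781.0 CPM in normal gravity and 526.1, 493.5 and 567.5 CPM in simulated microgravity, a fall of 1.58-fold (log2 fold change -0.66, SE 0.12, edgeR adjusted p = 0.0015). The groups of TPI1 were well apart.

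The payoff phase of the pathway begins with GAPDH. GAPDH, which oxidises glyceraldehyde 3-phosphate and is a common reference gene, lies on chromosome 12 (6534517 to 6538371). It was at 5400.6, 5553.8 and 4869.8 CPM in normal gravity and at 1849.6, 2190.2 and 1742.9 CPM in simulated microgravity. The lowest normal gravity library was far above the highest of the other group. GAPDH fell 2.74-fold (log2 fold change -1.45, SE 0.15, edgeR adjusted p = 9.14e-05), and its rank by count among all genes went from 9, 9 and 11 in the normal gravity libraries to 34, 22 and 35 in those of simulated microgravity. PGK1, phosphoglycerate kinase on chromosome X (78104248 to 78129295), makes the first ATP of the pathway. It was at 951.3, 924.9 and 837.6 CPM in normal gravity and 414.8, 436.4 and 466.6 CPM in simulated microgravity, a fall of 2.06-fold (log2 fold change -1.04, SE 0.12, edgeR adjusted p = 1.43e-04). The PGK1 groups did not overlap either. Reads of these abundant genes may also match pseudogenes, of which RefSeq lists 65 under GAPDH names and 6 or fewer for each of the other members. None of those pseudogenes had a row in the count table used here, which does not show how such reads were counted.

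ENO1, enolase 1 on chromosome 1 (8861000 to 8878686), removes water from 2-phosphoglycerate. It was at 2719.0, 2708.6 and 2087.6 CPM in normal gravity and 909.1, 934.9 and 914.5 CPM in simulated microgravity. Normal gravity replicate 3 was lower than replicates 1 and 2 yet far above the other group, and the fall was 2.72-fold (log2 fold change -1.45, SE 0.15, edgeR adjusted p = 8.64e-05). ENO2, the neuronal enolase, was at 14.1 ± 1.27 and 10.3 ± 1.73 CPM and did not pass (adjusted p = 0.0595). Of 5 tested genes of other glycolysis steps 3 fell, 1 rose and 1 did not pass, beside 29.3% lower and 28.2% higher over all genes tested. PGAM1, phosphoglycerate mutase, fell from 632.1 ± 94.0 to 318.4 ± 15.0 CPM (log2 fold change -0.99), though reads may be split with its near copy PGAM4, and PKM, pyruvate kinase, named after its values were seen, from 1967.3 ± 169.0 to 1117.9 ± 58.1 CPM (-0.82). BPGM, which makes 2,3-bisphosphoglycerate, rose from 13.3 ± 1.76 to 32.4 ± 2.61 CPM (log2 fold change 1.28, adjusted p = 0.000152).

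LDHA, the lactate dehydrogenase subunit that favours lactate formation, lies on chromosome 11 (18394563 to 18408425). It was at 2702.9, 2657.8 and 2242.5 CPM in normal gravity and 1462.3, 1570.3 and 1465.8 CPM in simulated microgravity, a fall of 1.69-fold (log2 fold change -0.76, SE 0.13, edgeR adjusted p = 0.00142). The 3 simulated microgravity libraries lay close together, below all of the others. Its partner LDHB, the subunit that favours the reverse reaction, was at 522.6, 522.2 and 424.1 CPM in normal gravity and 66.4, 101.4 and 74.9 CPM in simulated microgravity. LDHB fell 6.05-fold (log2 fold change -2.60, SE 0.18, adjusted p = 1.59e-05), and 3.71% of all genes tested had a lower log2 fold change. LDHA made up 83.8%, 83.6% and 84.1% of lactate dehydrogenase counts in normal gravity and 95.7%, 93.9% and 95.1% in simulated microgravity, with little spread within each group.

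**Figure D2:**
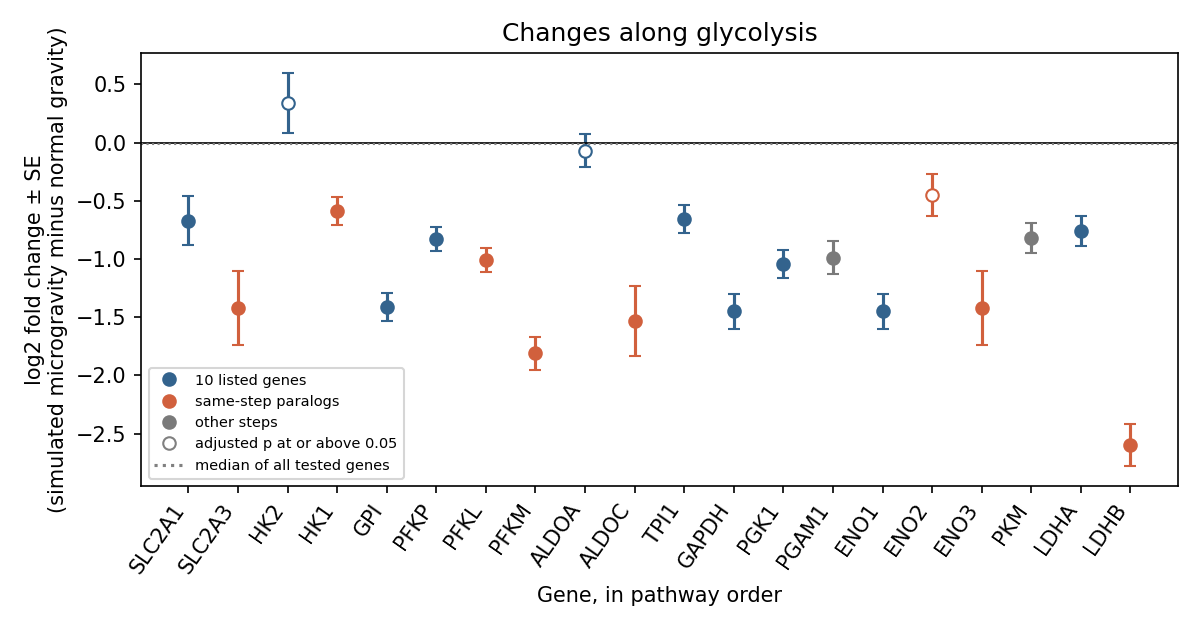
Log2 fold change (simulated microgravity minus normal gravity, bars are SE) along the pathway for the 10 genes (blue), their same-step paralogs with a test (orange, HKDC1 not drawn) and 2 other steps (grey), with open symbols for an adjusted p at or above 0.05 and a dotted line at the median of all tested genes. HK2 is the one gene drawn above 0 and LDHB is lowest, at -2.60.

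A ratio between genes of the same library does not depend on scaling, and such ratios were compared for the 7 steps that have paralogs in the table. The log2 ratio of the listed gene to its paralogs was higher in simulated microgravity by 1.86 for LDHA, 1.48 for ALDOA, 0.99 for HK2, 0.89 for SLC2A1 and 0.55 for PFKP, and lower by a difference of -0.83 for ENO1. In each of these 6 steps the groups did not overlap, which gives p = 0.10 in a two-sided exact permutation test, the smallest that 3 against 3 libraries allow (0.117 adjusted over the 7 steps). GAPDH had no paralog with more than 1 count in all libraries together, and its difference rests on the pseudocount. The ALDOA difference is uncertain, as are the ALDOA counts described above. Of 9 same-step paralogs tested 7 fell, none rose, and HKDC1 and ENO2 did not pass, beside 29.3% lower and 28.2% higher over all genes tested. The paralogs' median log2 fold change was -1.42, against -0.80 for the listed genes. That median rests partly on low levels, since SLC2A3, ENO3 and HKDC1 averaged 3.97, 3.62 and 2.62 CPM in normal gravity.

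**Figure D3:**
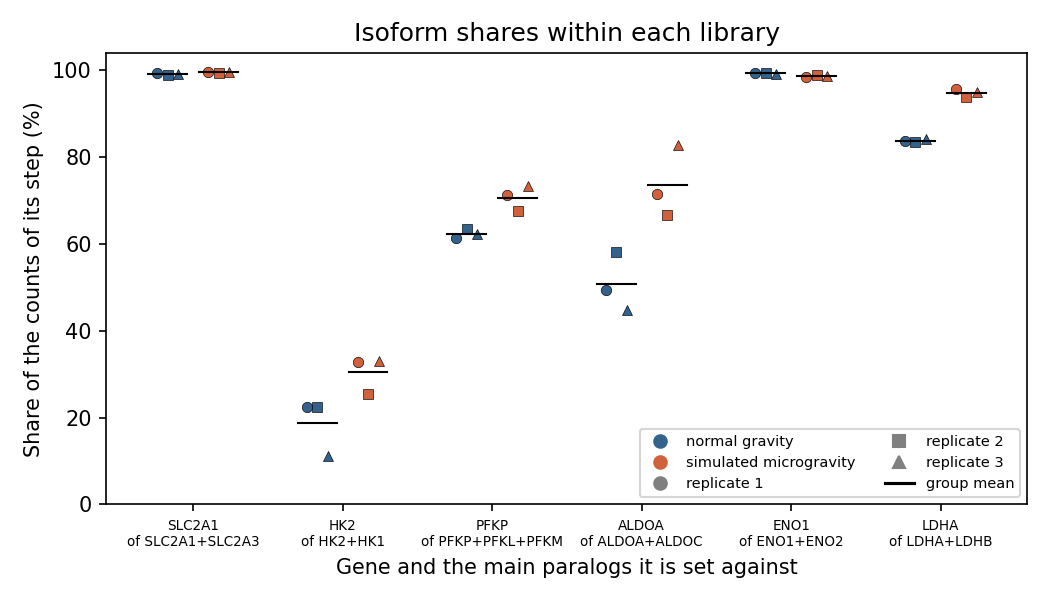
Share of the counts of a step (%) that came from the listed gene, in each library, for 6 steps, with all paralogs in the table in the total (the axis names the main ones) and lines for group means. The share of LDHA is 83.6% to 84.1% in normal gravity and 93.9% to 95.7% in simulated microgravity. The shares of HK2, PFKP and ALDOA (the last with uncertain counts) also separate the groups, and those of SLC2A1 and ENO1 stay above 98% in each library.

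Per length, the order of the levels stayed nearly the same. In CPM per kilobase, using the median length of a gene's coding transcripts in GENCODE 29, the normal gravity means were 4124 for GAPDH, 1406 for ENO1, 1388 for LDHA, 573.7 for TPI1, 261.2 for SLC2A1, 248.1 for PGK1, 133.8 for PFKP, 21.4 for HK2 and 17.7 for ALDOA, with GPI between PFKP and HK2 at 93.4 to 96.3 over its libraries. Over libraries, ENO1 overlapped LDHA, SLC2A1 overlapped PGK1 and HK2 overlapped ALDOA, while the other neighbours in this order did not overlap. In simulated microgravity LDHA (820.9) came before ENO1 (516.0), the other places were the same, and no neighbours overlapped. ALDOA stands last with the reserve given above.

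Ratios among the 10 genes also shifted. Relative to GAPDH in the same library, 7 of the other 9 genes were higher in simulated microgravity with no overlap, and GPI and ENO1 overlapped, with differences in the mean log2 ratio of 0.04 and 0.02. The differences were 1.86 for HK2, 1.39 for ALDOA (uncertain, as above), 0.83 for SLC2A1, 0.79 for TPI1, 0.70 for LDHA, 0.62 for PFKP and 0.42 for PGK1. ACTB, β-actin, another common reference gene, averaged 3720.6 ± 554.8 and 2849.2 ± 318.0 CPM in the same order and did not pass (log2 fold change -0.38, adjusted p = 0.0713). Relative to ACTB, 6 genes were lower with no overlap (GAPDH by a difference of -1.08, ENO1 -1.05, GPI -1.04, PGK1 -0.66, PFKP -0.45 and TPI1 -0.28), HK2 was higher with no overlap (0.78), and SLC2A1, ALDOA and LDHA overlapped. The sign of the mean difference thus turned with the reference for SLC2A1, GPI, PFKP, TPI1, PGK1, ENO1 and LDHA. Of these, PFKP, TPI1 and PGK1 alone had groups without overlap for both references. For TPI1 relative to ACTB the groups all but met, at -2.33 in replicate 2 of both.

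**Figure D4:**
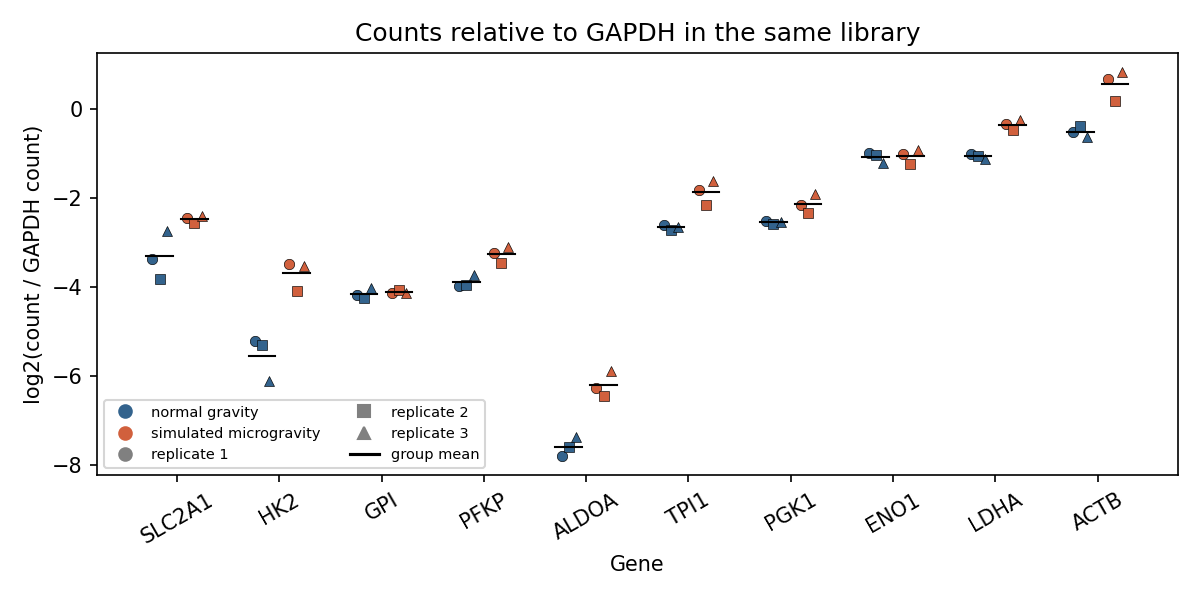
Log2 ratio of each gene's count to the GAPDH count of the same library, for the other 9 genes and ACTB, with lines for group means. GPI and ENO1 overlap between groups, and the remaining genes lie higher in simulated microgravity, ACTB by 1.08.

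The counts in the lists that follow stand beside 29.3% lower and 28.2% higher over all genes tested, and no list was tested as a set. Of 8 tested genes listed as regulators of glycolysis, 1 fell, 4 rose and 3 did not pass. The list holds enzymes that set the level of a phosphofructokinase activator, a glucokinase regulator, and TXNIP and ARRDC4, arrestin-family proteins that lower glucose uptake. The 4 that rose were PFKFB2, TIGAR, GCKR and ARRDC4, of which TIGAR and ARRDC4 were named after their values were seen. PFKFB3, a kinase that makes the phosphofructokinase activator fructose 2,6-bisphosphate, fell from 122.3 ± 15.2 to 53.6 ± 2.00 CPM (log2 fold change -1.19, adjusted p = 7.21e-05). PFKFB2, a related enzyme best known from heart, rose from 65.2 ± 6.70 to 210.5 ± 39.3 CPM (1.69, adjusted p = 5.26e-05). GCKR, a regulator of liver glucokinase, was not counted in any normal gravity library (0 counts), and with 3 counts over that group as the floor it was at least 39.1-fold higher. The list's median of 0.54 was the same with GCKR at that bound.

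Of 6 tested genes for lactate and pyruvate transport, 5 fell and 1 rose. SLC16A3, the lactate exporter MCT4, rose from 38.0 ± 10.4 to 88.2 ± 9.50 CPM (log2 fold change 1.22, adjusted p = 0.00115). EMB, embigin, a chaperone of monocarboxylate transporters, fell from 28.0 ± 3.66 to 4.24 ± 1.56 CPM (-2.72, SE 0.26). Of 11 pyruvate dehydrogenase, kinase and phosphatase genes (with pyruvate carboxylase), 5 fell, 2 rose and 4 did not pass. PDHA1, the catalytic subunit, fell from 71.3 ± 6.28 to 33.8 ± 3.74 CPM, and PDP1, the phosphatase that activates the complex, rose from 93.4 ± 7.79 to 154.9 ± 22.3 CPM.

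Past pyruvate, 14 of 23 tricarboxylic acid cycle and malic enzyme genes fell, 2 rose and 7 did not pass, with a median log2 fold change of -0.56. MDH2, mitochondrial malate dehydrogenase, fell from 210.5 ± 4.84 to 112.6 ± 9.77 CPM. IDH1, the cytosolic isocitrate dehydrogenase, was at 135.8, 123.9 and 180.2 CPM against 214.9, 212.9 and 195.0 CPM and rose by edgeR (adjusted p = 0.0175). That call was lost without replicate 1 or 2 of either group (adjusted p between 0.0534 and 0.073). In the malate-aspartate shuttle, which carries NADH electrons into mitochondria, 3 of 5 genes fell, none rose and 2 did not pass. GOT2, mitochondrial aspartate aminotransferase, had a log2 fold change of -1.20 and SLC25A12, the aspartate-glutamate carrier, of -1.50.

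Branches that leave glycolysis were mixed, as were all genes tested (29.3% lower, 28.2% higher). In the pentose phosphate pathway, which makes NADPH and ribose, 4 of 8 genes rose, 2 fell and 2 did not pass. TALDO1, transaldolase, rose from 168.1 ± 3.76 to 293.9 ± 16.3 CPM (adjusted p = 2.10e-04), and RPE, ribulose-phosphate epimerase, fell from 55.2 ± 4.93 to 35.1 ± 1.20 CPM. Of 18 glycogen genes 8 fell, 5 rose and 5 did not pass. PYGB, the brain-type glycogen phosphorylase, rose from 108.9 ± 10.9 to 318.4 ± 33.9 CPM and PGM1, phosphoglucomutase, fell from 109.6 ± 5.34 to 34.8 ± 7.38 CPM. Of 7 hexosamine and glycerol genes 3 fell, 1 rose and 3 did not pass. GFPT2, which starts hexosamine synthesis, rose from 1.24 ± 0.345 to 11.1 ± 3.75 CPM, and GPD1L, a glycerol-3-phosphate dehydrogenase-like enzyme, fell from 26.3 ± 4.76 to 12.3 ± 3.65 CPM. Of 3 gluconeogenesis genes tested G6PC3, a glucose-6-phosphatase, fell with SLC37A4, named after its values were seen, and PCK2, the mitochondrial PEP carboxykinase, rose from 18.4 ± 2.68 to 26.9 ± 4.09 CPM. The PCK2 call was lost without normal gravity replicate 2 or simulated microgravity replicate 3 (adjusted p = 0.0649 and 0.0852).

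Among HIF subunits and hypoxia reporters 7 of 18 fell, 3 rose and 8 did not pass, with a median log2 fold change of -0.20. Over all genes tested 57.6% were called, 29.3% lower and 28.2% higher. BNIP3, a mitophagy receptor, fell from 153.9, 147.0 and 137.4 to 53.5, 52.3 and 59.2 CPM, and its relative BNIP3L rose from 97.6, 98.7 and 108.5 to 192.6, 139.7 and 170.3 CPM. The other genes that fell, named after their values were seen, were CA9, EGLN3, ADM, NDRG1, DDIT4 and P4HA1, and the others that rose were VHL and VEGFA. CA9, carbonic anhydrase 9, a common hypoxia marker, was at 52.0, 40.1 and 91.2 CPM against 3.10, 4.31 and 4.48 CPM and had the lowest log2 fold change of the list (-3.94, SE 0.34, edgeR adjusted p = 6.52e-05). HIF1A, which encodes the oxygen-regulated subunit of HIF-1 and was named after its values were seen, was at 448.8, 485.4 and 465.1 CPM in normal gravity and 463.3, 442.8 and 417.1 CPM in simulated microgravity, and did not pass (adjusted p = 0.538).

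**Figure D5:**
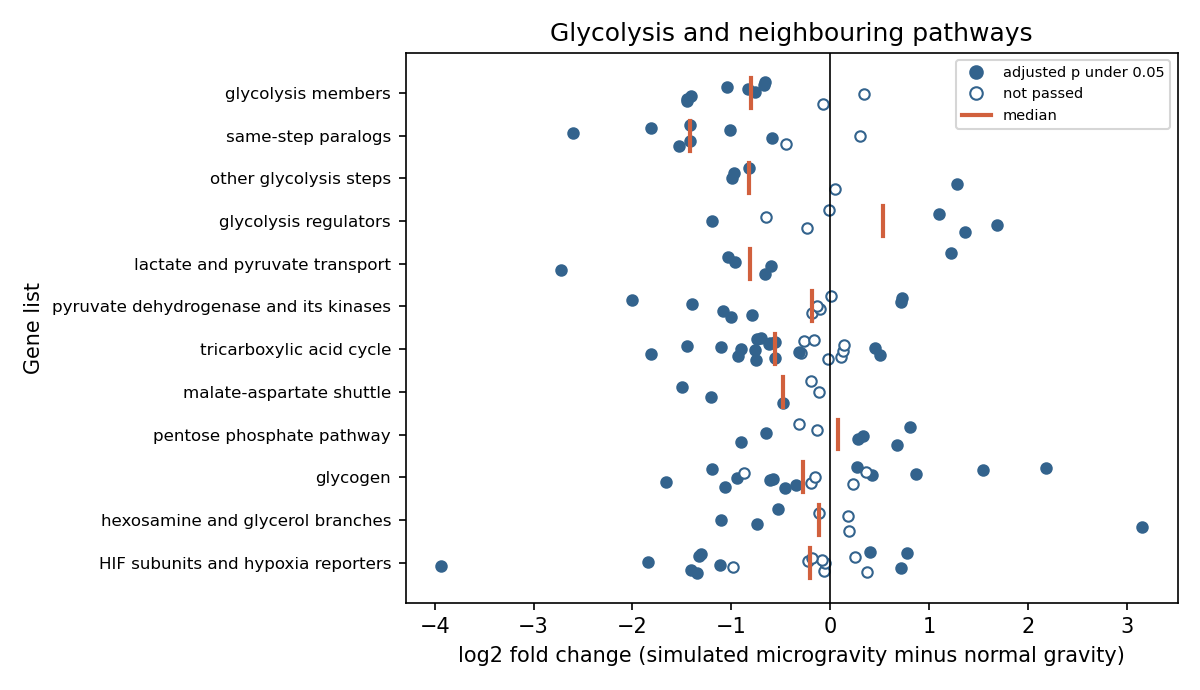
Log2 fold changes of the tested genes of 12 lists (filled symbols passed an adjusted p of 0.05, orange bars are list medians, GCKR not drawn). The glycolysis genes have a median of -0.80 and their paralogs of -1.42, and the regulators (0.54) and the pentose phosphate pathway (0.08) have medians above 0.

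Of 14726 other genes, those nearest to the mean profile of the 10 genes over the 6 libraries, by root mean square difference of centred log2 CPM, were TRUB1 (0.0248), LRFN4 (0.0416), PRDX3 (0.0444), ERI3 (0.0471) and TUFM (0.051). TRUB1, a pseudouridine synthase, was at 36.2, 35.7 and 31.5 CPM in normal gravity and 19.4, 20.4 and 20.0 CPM in simulated microgravity.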

How the data were processed

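RNA libraries of HSC-3 cells, 3 for normal gravity and 3 for simulated microgravity, were sequenced in paired-end reads of 150 bases with a VAHTS Universal kit, per the labels' protocols. One table deposited by the authors holds raw whole-number read counts for all libraries. The submitters' processing notes name HISAT, fastp, DESeq2, HTSeq, R 3.2.0 and hg38, with no roles. The sources used here give no annotation release, strand setting or handling of multiply mapped reads. The treatment protocol explains the column name SMG, and NC was read as normal gravity, the one remaining group. Labels call the replicates biological, with no word on separate cultures, and p-values reflect only the spread among them, which may be technical.

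Genes with low counts were removed with filterByExpr of edgeR 4.0.16 (minimum count 10), counts were scaled by TMM and tested with the quasi-likelihood F-test (robust, R 4.3.3), with Benjamini-Hochberg adjustment over all 14736 genes and a threshold of 0.05. Each SE is the absolute log2 fold change over the root of its F statistic. CPM uses TMM-scaled library sizes. Isoform ratios used a pseudocount of 0.5. The fit was also run on simulated counts in which few genes changed. That run does not test it where 57.6% of genes are called, as here. Reads carry no molecular identifiers, so the floor of 3 counts covers counting error only.

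Members and the 16 other lists were chosen with earlier results of these data known. Of 182 listed genes 176 were found. Named genes are the 10 members, same-step paralogs at 5 CPM or more in the higher group, 2 per other list with the smallest adjusted p (1 per direction where both were called) and the 5 nearest profiles. Most others are said to be named after their values were seen. Exceptions are SLC2A3, ENO3, HKDC1, PGAM4, GCKR, TXNIP, ACTB and markers, named to describe a step, list or reference. Coordinates and promoter windows are from RefSeq GRCh38.p14, a patch release of hg38, and all 10 members matched a promoter entry. Alternatives were scaling by library size alone or by DESeq2 size factors, no filter, a filter of CPM above 1 in 3 libraries, the DESeq2 1.42.0 Wald test, limma-voom (limma 3.58.1), a replicate block and leaving out each library.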

Additional observations from a re-analysis of the deposited data

How the results depend on the processing

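The count of members lower was 8 with either other scaling, no filter, the CPM filter, the DESeq2 Wald test and limma-voom, and 7 to 8 when single libraries were left out, with SLC2A1 the gene lost. The log2 fold change of SLC2A1 was between -0.86 and -0.41 when single libraries were left out, and that of HK2 between 0.07 and 0.50 (adjusted p between 0.191 and 0.611 over all alternatives). Calls over all genes ranged from 6938 to 9555. With the replicate block 8 members were lower and 7860 of all genes tested were called (8482 without it). Same-numbered libraries did not visibly deviate together (correlations 0.0494, -0.0437 and -0.0169, against -0.0692 to 0.0772 for other pairs). With 3 libraries in each group this cannot show whether the samples were paired by culture or batch. The median log2 fold change of all genes was between -0.012 and 0.011 over the 3 scalings, and between -0.025 and 0.073 over all alternatives, the highest with no filter.

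With nuclear genes only in the total, the members' share differed by -0.824 percentage points in place of -0.715. The count of changed fibroblast markers was between 0 and 1 when single libraries were left out, and that of endothelial markers was 0 with the CPM filter. Against ACTB in place of GAPDH the differences were -0.24 for SLC2A1, -1.04 for GPI, -0.45 for PFKP, -0.28 for TPI1, -0.66 for PGK1, -1.05 for ENO1 and -0.37 for LDHA, because GAPDH itself fell relative to ACTB. Relative to GAPDH, GPI was between -0.01 and 0.11 and ENO1 between -0.05 and 0.11 when single libraries were left out. The cause of the other shifts was not tested.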
